A study of Mus musculus with 9 samples.

Results

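The lysosomal cathepsins were examined in mouse squamous cell carcinoma (SCC) cells with and without focal adhesion kinase (FAK). The family was taken as 10 named genes, *Ctsz*, *Ctsa*, *Ctsb*, *Ctsc*, *Ctsd*, *Ctsf*, *Ctsh*, *Ctsk*, *Ctsl* and *Ctss*, out of 19044 gene identifiers in the count table. *Ctsz* was chosen by its measured level, which was at the count floor in FAK-WT cells, so that level is given as a description and was not tested. Of the 10 genes, 9 had values in the table, and *Ctsc* was not analysed here. The edgeR filter on low counts, filterByExpr, kept 6 of them, *Ctsz*, *Ctsh*, *Ctsa*, *Ctsb*, *Ctsd* and *Ctsl*. RNA-seq had been carried out on 3 cell lines with 3 biological replicates each. All lines go back to SCC cells from K14CreER FAK flox/flox mice of the FVB strain, in which tumours were raised on the skin with dimethylbenzanthracene and a phorbol ester and FAK was then deleted in culture with 4-hydroxytamoxifen. The FAK-/- cells carry no construct in the study's description, and the FAK-WT and FAK-kd cells are a FAK-/- clone that stably expresses, from a retrovirus and under hygromycin selection, wild-type FAK or a kinase-deficient lysine-to-arginine mutant. Each genotype is therefore represented by 1 cell line, and the construct cannot be told apart from any other difference between the lines. The replicate p-values measure the spread between libraries of a line.

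Cathepsins are proteases of the endosomes and lysosomes that are made as inactive precursors, carried to the lysosome largely by mannose 6-phosphate receptors, and activated by acid and by cleavage. Most are cysteine proteases of the papain type, whereas cathepsin D is an aspartic and cathepsin A a serine protease. In carcinomas they are known for protein breakdown in the lysosome, and when secreted for cleavage of extracellular matrix, and tumour-associated macrophages are a known further source. Cathepsins L, B, D, S, K and F cut within proteins, and cathepsins Z, A, H and C trim their ends, with cathepsin B able to do both.

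The libraries held between 25304994 and 37264636 estimated counts, except FAK-WT replicate 1, which held 779755, or 2.31% of the median of the others. A floor of 3 counts corresponds to 3.78 CPM (counts scaled to the library total with the TMM factors) in that library and to between 0.0798 and 0.118 CPM in the other libraries. Floors and intervals from counts cover counting error only. *Ptk2*, the gene of FAK, lay between 213 and 216 CPM in FAK-WT, between 19.6 and 23.5 CPM in FAK-/- and between 155 and 176 CPM in FAK-kd libraries. It was lowest in FAK-/- cells, as the labels give. They give no order between FAK-WT and FAK-kd cells, where *Ptk2* was higher in FAK-WT by 0.40 on the log2 scale (adjusted p = 0.00163, quasi-likelihood test of edgeR). These 2 lines thus differ in *Ptk2* level as well as in the kinase mutation. FAK-/- replicate 3 stood apart from its 2 partners, with a chi-square of 59.0 and 53.3 per degree of freedom over genes. FAK-kd replicate 1 stood apart less far, at 17.1 and 18.9, where FAK-kd replicates 2 and 3 had 5.27. The remaining pairs of libraries from 1 line had between 2.75 and 5.96. The value of 2.75 came from pairs with the shallow FAK-WT replicate 1, and this measure grows with depth. Keratinocyte markers were nearly silent in these carcinoma cells. Of the 8 of 10 markers in the table, *Krt5*, *Krt14*, *Krt6a*, *Krt18* and *Cdh1* had at most 8 counts in any library, *Sfn* at most 19 and *Krt8* at most 46. *Itga6*, an integrin subunit of basal keratinocytes, made up nearly all of the summed level of 170.5 to 175 CPM in FAK-WT, 283 to 298 CPM in FAK-/- and 253 to 275 CPM in FAK-kd cells. The markers did not move in 1 direction. *Itga6* was called lower in FAK-WT cells relative to both other lines. *Krt6a* was called higher in FAK-WT than in FAK-kd cells (log2 fold change 3.09, edgeR adjusted p = 0.0236), with overlapping libraries. *Krt8* was higher in FAK-kd than in FAK-/- cells (log2 fold change 2.13, edgeR adjusted p = 0.00548). *Col3a1*, a fibrillar collagen of mesenchymal cells, lay at 1629 ± 45.9 CPM in FAK-WT, 1436 ± 142 CPM in FAK-/- and 1704 ± 302 CPM in FAK-kd cells (SD, n = 3 each).

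*Ctsz* (ENSMUSG00000016256), which encodes the carboxypeptidase cathepsin Z, sits at chr2:174427493-174439039 (GRCm38, minus strand). The annotation gives it 1 coding transcript of 6 exons, and none of its 31-base words occurs in a transcript of another gene, so its counts do not depend on how reads were divided between genes. The 250 bases before its start, at chr2:174439040-174439289 on the minus strand (RefSeq, GRCm38.p6), are shown because this was the member that nearly vanished from 1 line. Capitals mark the overlapping pair of matches to GGGCGG, the GC box.
*Ctsz* upstream: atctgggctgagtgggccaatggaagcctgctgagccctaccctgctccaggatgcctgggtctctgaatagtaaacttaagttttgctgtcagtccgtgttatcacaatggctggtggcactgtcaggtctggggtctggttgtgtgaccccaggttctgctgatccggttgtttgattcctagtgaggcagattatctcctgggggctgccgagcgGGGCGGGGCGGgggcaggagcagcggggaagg
On either strand, GGGCGG was found in 32.7% of 32851 upstream windows of the same length. The window holds 7 CG pairs, against a median of 6 over all windows, and its GC content is 58.8%. Neither CACGTG nor TATAAA was found in it, nor was TGANTCA or TGACGTCA, nor CCGGAAGT. CACGTG is the core of the element bound by the lysosomal regulators TFEB and TFE3, TGANTCA and TGACGTCA are bound by AP-1 and cyclic AMP response factors, and CCGGAAGT is bound by ETS factors. These 4 motifs occur in 6.02%, 6.75%, 1.55% and 2.88% of all windows, and the TATA box TATAAA in 12.4%.

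*Ctsz* was all but undetected in FAK-WT cells, present in FAK-/- cells and highest in FAK-kd cells. Replicates 1, 2 and 3 of FAK-WT held 0, 1 and 0 counts. The FAK-/- libraries held 325, 229 and 271 counts, which correspond to 9.74, 9.03 and 8.68 CPM. The FAK-kd libraries held 897, 885 and 934 counts, which correspond to 26.9, 26.5 and 27.3 CPM. No library of any line overlapped with those of another, and the single FAK-WT count came from a library of 37264636 counts. The lines did not overlap in 42.5% (FAK-WT and FAK-/-), 47.7% (FAK-WT and FAK-kd) and 35.3% (FAK-kd and FAK-/-) of the 12235 genes kept by the filter. From the 1 count over the FAK-WT libraries, the ratio of FAK-/- to FAK-WT cells was 670 (exact 95% interval from the counts 120 to 26488), and that of FAK-kd to FAK-WT cells was 1966 (353 to 77700). These intervals do not allow for the choice of *Ctsz* by its FAK-WT level, so they too are a description. If each FAK-WT library were set at the floor of 3 counts, the ratios would be 74.2 and 218. FAK-WT replicate 1 contributes little to this, since its floor of 3.78 CPM lies within a factor of 3 of the FAK-/- level, and without it the ratios to the floor were 110 and 324. FAK-kd exceeded FAK-/- cells, a comparison that the choice of *Ctsz* did not use, by 1.56 on the log2 scale (standard error 0.10, 95% interval 1.34 to 1.77, n = 3 each), with an adjusted p of 1.7e-07 in the quasi-likelihood test of edgeR.

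**Figure D1:**
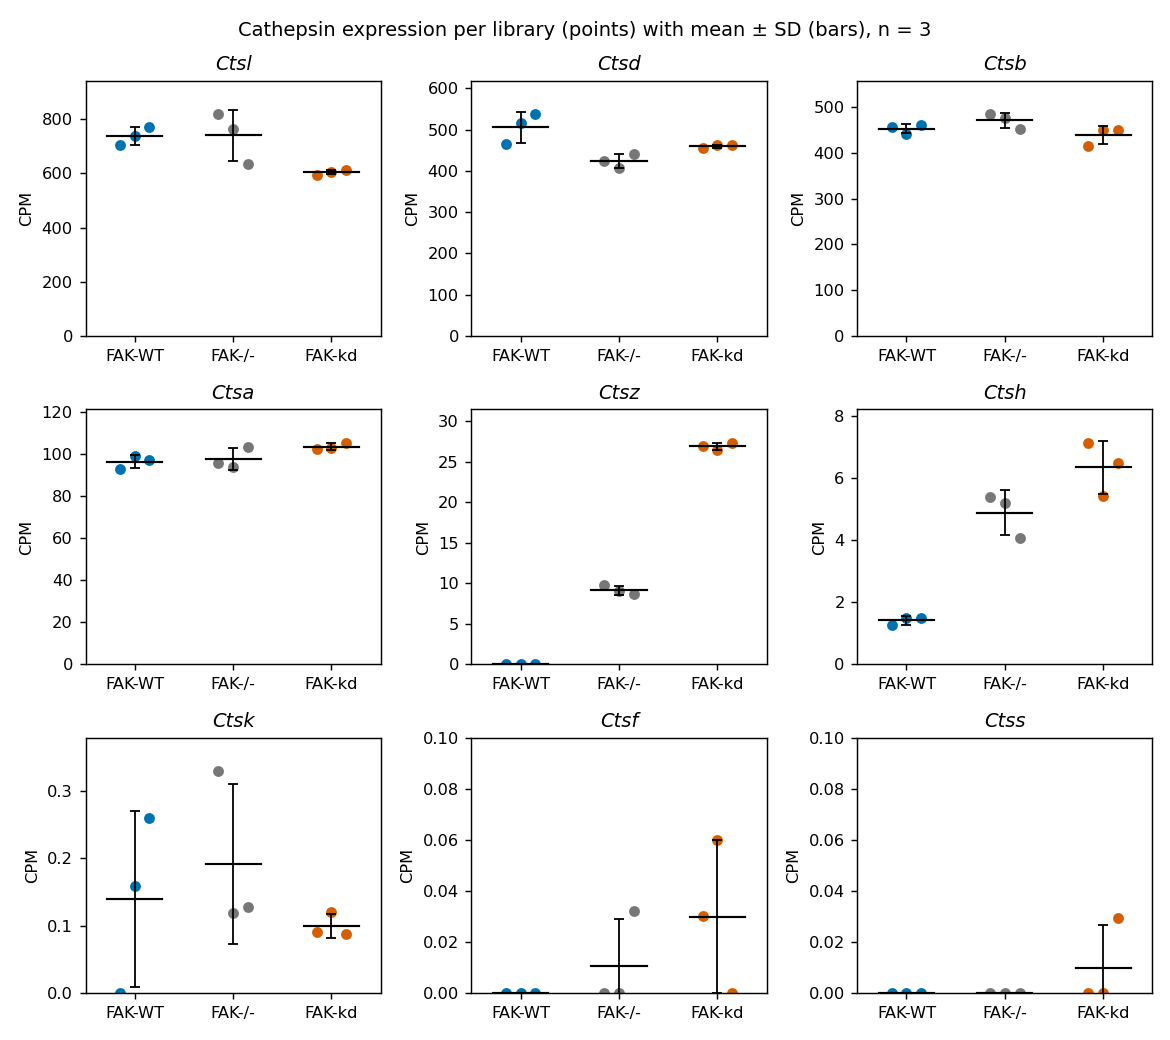
Expression in CPM (y axes, linear and from 0, each with its own scale) of the 9 cathepsins with values, in the 3 cell lines (x axes). Points are libraries, wide bars are means and whiskers are SD (n = 3). *Ctsz* and *Ctsh* are lowest in FAK-WT cells and highest in FAK-kd cells, *Ctsl*, *Ctsd*, *Ctsb* and *Ctsa* are abundant in all lines, and *Ctsk*, *Ctsf* and *Ctss* stay under 0.4 CPM.

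*Ctsh* (ENSMUSG00000032359), which encodes the aminopeptidase cathepsin H, was the member whose pattern was most like that of *Ctsz*. It lies on chromosome 9 of GRCm38 at chr9:90054152-90076089 on the plus strand, and 1.71% of its 31-base words occur in another gene's transcripts. The FAK-WT libraries held 1, 56 and 52 counts, or 1.26, 1.49 and 1.50 CPM. The FAK-/- libraries held 180, 132 and 127 counts, or 5.39, 5.20 and 4.07 CPM. The FAK-kd libraries held 238, 181 and 221 counts, or 7.14, 5.42 and 6.47 CPM. Every FAK-WT library lay below every library of the other lines, and the lowest FAK-kd library lay just above the highest FAK-/- library. FAK-WT cells had less *Ctsh* than FAK-/- cells, and the log2 fold change was -1.71 (95% interval -2.17 to -1.26, standard error 0.21, edgeR adjusted p = 3.3e-05). Against FAK-kd cells the log2 fold change was -2.09 (standard error 0.21, 95% interval -2.54 to -1.64, adjusted p = 4.7e-06). FAK-kd and FAK-/- cells differed by 0.38 on the log2 scale (95% interval 0.01 to 0.75), which did not pass (adjusted p = 0.238). FAK-WT replicate 1 rests on 1 count of *Ctsh*, and without that library the log2 fold changes were -1.71 and -2.08. Unlike *Ctsz*, *Ctsh* was thus still detected in FAK-WT cells, in 2 libraries with over 50 counts.

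The endopeptidases *Ctsl*, *Ctsd* and *Ctsb* and the carboxypeptidase *Ctsa* made up nearly all of the cathepsin transcripts, and none of them differed between lines by as much as 1 on the log2 scale. *Ctsl* (ENSMUSG00000021477, chr13:64359337-64370890, minus strand) lay at 706, 737 and 772 CPM in the FAK-WT libraries. In the FAK-/- libraries it lay at 818, 765 and 636 CPM, and in the FAK-kd libraries at 595, 606 and 612 CPM. Its FAK-/- libraries spread around those of FAK-WT cells, and all FAK-kd libraries lay below both. The log2 fold change was 0.00 between FAK-WT and FAK-/- cells (95% interval -0.17 to 0.18, edgeR adjusted p = 1), 0.29 for FAK-WT relative to FAK-kd cells (standard error 0.08, adjusted p = 0.0212) and -0.29 between FAK-kd and FAK-/- cells (standard error 0.08, adjusted p = 0.0385). These calls were close to the threshold. The first was lost without FAK-WT replicate 2 or 3 or any of the FAK-kd replicates 1, 2 and 3 (adjusted p from 0.0619 to 0.120). The second was lost without FAK-WT replicate 2 or 3, FAK-/- replicate 1 or 2 or any of the FAK-kd replicates (adjusted p from 0.0566 to 0.159), and without FAK-/- replicate 3 it was -0.39 (adjusted p = 1.4e-05). Of the 31-base words of *Ctsl*, 28.2% also occur in transcripts of other genes.

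*Ctsd* (ENSMUSG00000007891, chr7:142375911-142388038, minus strand), the aspartic endopeptidase, lay at 465, 515 and 537 CPM in the FAK-WT libraries. It lay at 423, 407 and 441 CPM in the FAK-/- libraries and at 456, 462 and 462 CPM in the FAK-kd libraries. The FAK-WT libraries were the highest of all, with FAK-WT replicate 1 only just above the FAK-kd libraries. The log2 fold change was 0.26 between FAK-WT and FAK-/- cells (standard error 0.07, 95% interval 0.12 to 0.41, edgeR adjusted p = 0.0122), 0.15 between FAK-WT and FAK-kd cells (adjusted p = 0.165) and 0.12 between FAK-kd and FAK-/- cells (adjusted p = 0.349). The first call was lost without FAK-WT replicate 2 (adjusted p = 0.0811), FAK-WT replicate 3 (0.123) or FAK-/- replicate 2 (0.0570), and without FAK-/- replicate 3 the second value passed (0.16, adjusted p = 0.0192). Of its 31-base words, 33.2% also occur in GENCODE transcripts of *Gm49369*. That gene had no values in the count table, so no deposited counts were given to it. Whether the authors' transcriptome held it cannot be told here.

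*Ctsb* (ENSMUSG00000021939, chr14:63122462-63145923, plus strand) lay at 453 ± 10.6 CPM in FAK-WT, 471 ± 16.8 CPM in FAK-/- and 439 ± 19.8 CPM in FAK-kd cells (SD, n = 3 each). *Ctsa* (ENSMUSG00000017760, chr2:164832873-164841032, plus strand), whose product also shields lysosomal sialidase and beta-galactosidase from breakdown, lay at 96.4 ± 3.03, 97.7 ± 5.11 and 104 ± 1.58 CPM (SD, n = 3 each). The FAK-WT and FAK-/- libraries overlapped for both genes. Between FAK-WT and FAK-/- cells the 95% interval of the log2 fold change was -0.19 to 0.08 for *Ctsb* and -0.15 to 0.14 for *Ctsa*, and for FAK-WT relative to FAK-kd cells it was -0.09 to 0.18 and -0.24 to 0.05. Neither gene passed in any comparison. Of their 31-base words, 14.6% (*Ctsa*) and 13.0% (*Ctsb*) also occur in transcripts of other genes.

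**Figure D2:**
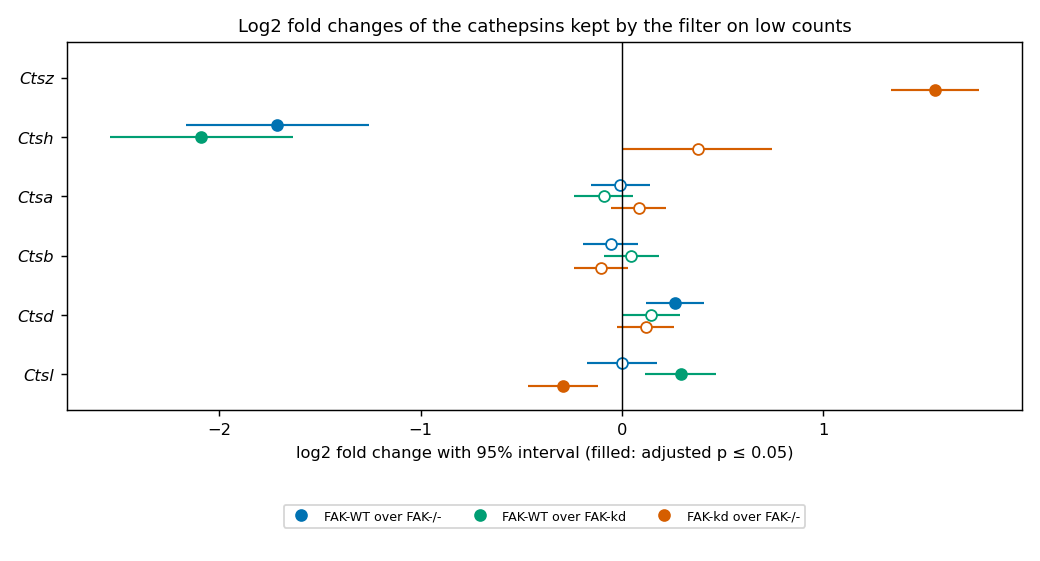
Log2 fold changes (x axis) of the 6 cathepsins kept by the filter on low counts (y axis) in the 3 comparisons, with 95% intervals as lines and filled points where the adjusted p was 0.05 or below. *Ctsz* is shown between FAK-kd and FAK-/- cells, at 1.56, and not against FAK-WT cells, where 1 count sets its level. *Ctsh* lies at -1.71 and -2.09, and *Ctsa*, *Ctsb*, *Ctsd* and *Ctsl* lie within 0.3 of 0.

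The family was counted over its 9 members with values, with *Ctsz* left out against FAK-WT cells. The other cathepsins that were called moved in both directions. With so few members the counts are a description beside the shares of all genes. Between FAK-WT and FAK-/- cells, 1 cathepsin other than *Ctsz* was higher (*Ctsd*) and 1 was lower (*Ctsh*) at an adjusted p of 0.05 or below. Of all 19044 genes, 8.01% were called higher and 9.96% lower. Between FAK-WT and FAK-kd cells, 1 was higher (*Ctsl*) and 1 was lower (*Ctsh*), where 7.58% and 10.2% of all genes were called. Between FAK-kd and FAK-/- cells, 1 of the 9 was higher (*Ctsz*) and 1 was lower (*Ctsl*), where 3.97% and 3.88% of all genes were called. With a minimum of 1 for the size of the log2 fold change, *Ctsh* in the FAK-WT comparisons and *Ctsz* in the last comparison were left. Under that minimum FAK-WT cells had 3.06% of all genes lower and 2.32% higher against FAK-/- cells, and 2.89% lower and 2.37% higher against FAK-kd cells, while FAK-kd cells had 0.914% higher and 1.09% lower against FAK-/- cells. The 2 comparisons with FAK-WT cells share those libraries. Over the 6 members kept by the filter, *Ctsz* included, the median log2 fold change was -0.03, -0.02 and 0.10 in the 3 comparisons, beside -0.02, -0.02 and 0.01 over all genes kept.

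The remaining members were barely transcribed. *Ctsk*, the collagen-cutting cathepsin of osteoclasts, had 0, 6 and 9 counts in the FAK-WT, 11, 3 and 4 in the FAK-/- and 3, 4 and 3 in the FAK-kd libraries. *Ctsf* had at most 2 counts in any library, and *Ctss*, which processes antigen in macrophages and dendritic cells, had 1 count in 1 FAK-kd library and 0 in all others. *Ctsk* and *Ctss* are direct neighbours on chromosome 3, 17.4 kb apart with no coding gene between them, whereas *Ctsa* and *Ctsz* on chromosome 2 are separated by 9586.5 kb and 85 coding genes. The highest level among these genes was 0.330 CPM, of *Ctsk* in FAK-/- replicate 1. None of them thus reached the level of *Ctsz* or *Ctsh* in FAK-/- or FAK-kd cells. Small differences in *Ctsk*, *Ctsf* or *Ctss* were not detectable at these counts, and in FAK-WT replicate 1 even a level of 3.78 CPM would give only 3 counts.

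Levels of different genes were set side by side per kilobase of coding transcript. On this scale the order of the means was *Ctsl*, *Ctsd*, *Ctsb* and *Ctsa* in every line, at 360, 250, 95.6 and 58.8 CPM per kb in FAK-WT cells, 361, 209, 99.3 and 59.6 CPM per kb in FAK-/- cells and 295, 227, 92.6 and 63.2 CPM per kb in FAK-kd cells. No pair of neighbours among these overlapped within a line. *Ctsz* and *Ctsh* followed at 6.35 and 5.60 CPM per kb in FAK-/- cells, where their libraries overlapped, and at 18.7 and 7.27 CPM per kb in FAK-kd cells, where they did not. In FAK-WT cells *Ctsh* lay at 1.62 and *Ctsz* at 0.00616 CPM per kb. The summed level of the family was 766 ± 36.0 CPM per kb for FAK-WT, 741 ± 42.1 CPM per kb for FAK-/- and 704 ± 10.1 CPM per kb for FAK-kd cells (SD, n = 3 each), with libraries from 728 to 800, from 698 to 782 and from 692 to 712. The FAK-WT libraries overlapped with those of FAK-/- cells and lay above those of FAK-kd cells. *Ctsz* was 0.857% of the sum in FAK-/- and 2.66% in FAK-kd cells, and *Ctsl* was 47.0% for FAK-WT, 48.6% for FAK-/- and 41.9% for FAK-kd cells. With the longest transcript of each gene as its length, the sums were 480, 455 and 458.

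**Figure D3:**
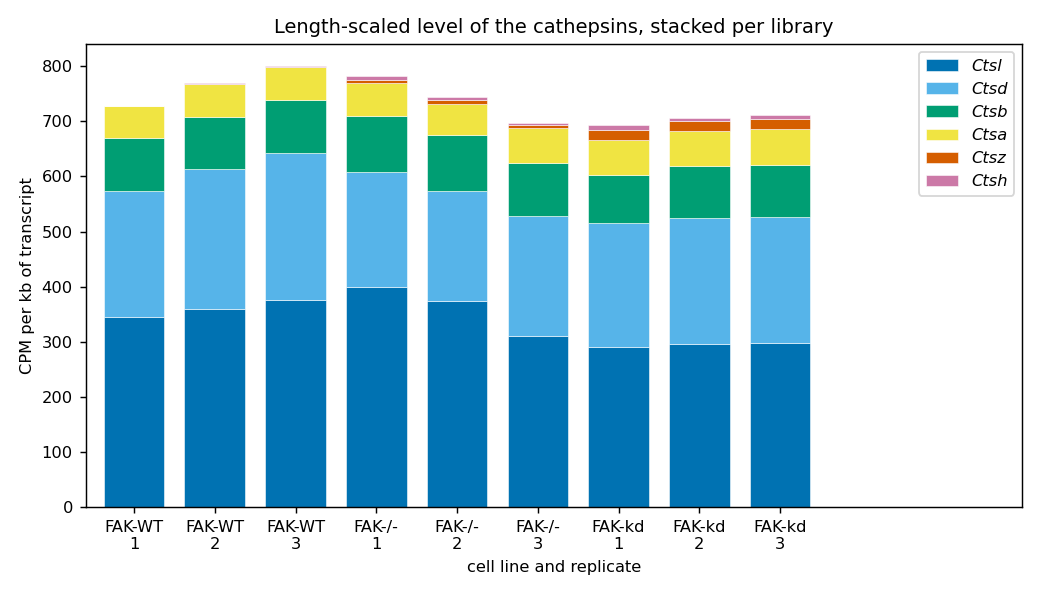
Length-scaled level in CPM per kb (y axis, from 0) of 6 cathepsins, stacked for each library (x axis). *Ctsl* and *Ctsd* form most of each bar, and the *Ctsz* segment is visible in the FAK-kd and FAK-/- libraries and not in the FAK-WT libraries.

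Among 10911 genes with a mean of at least 1 CPM, the 5 whose level over the 9 libraries was most like that of *Ctsz* were *Csrp1*, *Wnt7b*, *Ptgfrn*, *Emx2* and *Mcur1*, with Pearson's r of 0.997, 0.996, 0.994, 0.993 and 0.993 on the log2(CPM + 0.5) scale. The libraries fall into 3 lines, so these values describe a shared order of the lines. *Csrp1*, a LIM-domain protein of the actin cytoskeleton, lay at 56.4 ± 1.14 CPM in FAK-WT, 134 ± 2.50 CPM in FAK-/- and 192 ± 10.4 CPM in FAK-kd cells (SD, n = 3 each). *Wnt7b*, a secreted Wnt ligand, came closest to the on-off pattern, with 0, 2 and 3 counts in the FAK-WT libraries and 8.43 ± 0.942 and 22.4 ± 4.98 CPM in FAK-/- and FAK-kd cells. *Emx2*, a homeobox transcription factor, lay at 0.165 ± 0.150, 3.86 ± 0.285 and 7.27 ± 0.143 CPM in the 3 lines. *Ptgfrn* went from 166 ± 5.33 to 261 ± 5.64 and 292 ± 5.35 CPM, and *Mcur1*, a regulator of mitochondrial calcium uptake, from 26.5 ± 0.0387 to 36.1 ± 0.147 and 41.1 ± 1.70 CPM. *Ctsz* and *Wnt7b* were the 2 genes of the table with at most 3 counts in every FAK-WT library and a mean of at least 5 CPM in both other lines. *Ctsh* ranked 34 in likeness to *Ctsz* (r = 0.984), while r was 0.59 for *Ctsa*, -0.15 for *Ctsb*, -0.58 for *Ctsl* and -0.64 for *Ctsd*.

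Among the coding genes around *Ctsz* with more than 1 count, none differed by a comparable amount. *Nelfcd*, a subunit of the negative elongation factor, ends within the 3′ end of *Ctsz* on the opposite strand, and lay at 62.7 ± 4.54 CPM in FAK-WT, 73.3 ± 3.90 CPM in FAK-/- and 63.9 ± 2.34 CPM in FAK-kd cells (SD, n = 3 each). It was lower in FAK-WT cells relative to FAK-/- cells by 0.26 on the log2 scale (edgeR adjusted p = 0.0323) and did not pass against FAK-kd cells (log2 fold change -0.06). On the side of lower coordinates, *Gnas*, the stimulatory G protein subunit, differed by -0.23 from FAK-/- cells (adjusted p = 0.0366) and *Npepl1*, an aminopeptidase, by -0.38 from FAK-kd cells (adjusted p = 0.0162), while *Gm20721* passed in no comparison. On the other side, *Atp5e*, a subunit of ATP synthase 22.0 kb away, differed by -0.35 from FAK-/- cells (adjusted p = 0.0422), *Prelid3b* lay between 84.2 and 98.9 CPM in all libraries and did not pass, and *Zfp831* had at most 1 count in any library. The log2 fold changes that passed lay between -0.38 and -0.23, beside the ratio of 670 for *Ctsz*.

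**Figure D4:**
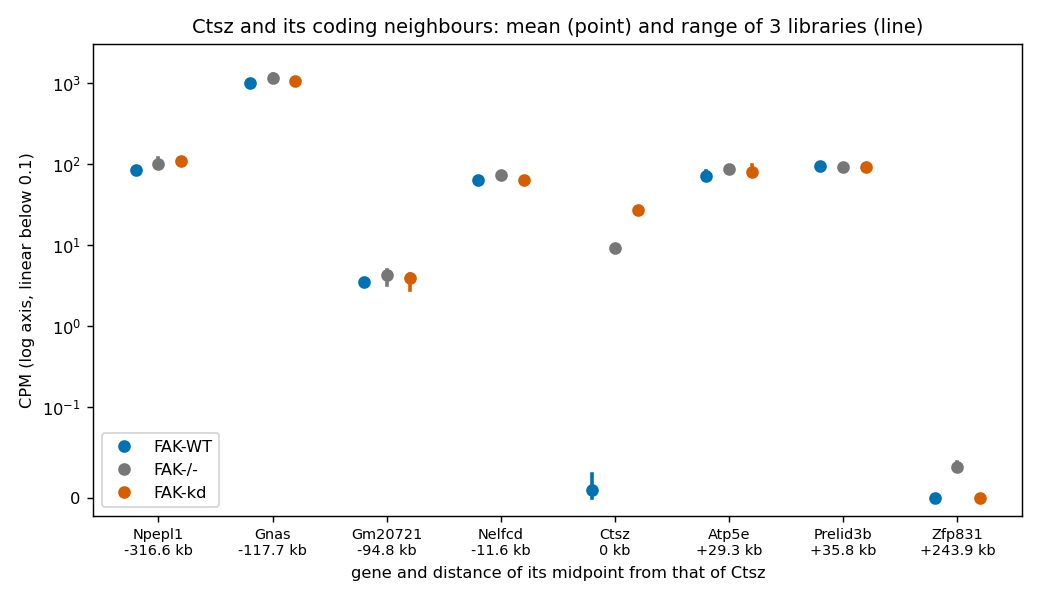
Level in CPM (y axis, logarithmic above and linear below 0.1) of *Ctsz* and its neighbouring coding genes, in order along chromosome 2 (x axis, with the distance between gene midpoints in kb). Points are means and lines the range of 3 libraries. *Ctsz* drops to the bottom of the plot in FAK-WT cells, where *Zfp831* lies in every line, while the means of its neighbours *Nelfcd* and *Atp5e* lie between 62.7 and 87.3 CPM in all 3 lines.

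Many lysosomal genes carry the CACGTG core bound by TFEB, TFE3 and MITF near their start. Windows of 250 bases before a RefSeq start were found for 8 of the 10 members, 9 windows in all, and *Ctsb* and *Ctsh* had none. CACGTG was found in those of *Ctsd*, *Ctsl* and *Ctsf* and in 1 of the 2 windows of *Ctsa*, where 6.02% of all windows hold it. No match was found in the windows of *Ctsz*, *Ctsc*, *Ctsk* and *Ctss* or in the other window of *Ctsa*. The lack of the motif is thus not particular to *Ctsz*. The stretches that hold it are shown with CACGTG in capitals and are read on the strand of the gene (RefSeq, GRCm38.p6).
*Ctsd* at chr7:142388048-142388077, minus strand: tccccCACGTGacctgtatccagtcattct
*Ctsd* at chr7:142387908-142387937, minus strand: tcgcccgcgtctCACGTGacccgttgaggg
*Ctsl* at chr13:64370739-64370768, minus strand: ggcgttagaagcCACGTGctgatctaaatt
*Ctsa* at chr2:164833743-164833772, plus strand: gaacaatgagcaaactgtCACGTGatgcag
*Ctsf* at chr19:4855074-4855103, plus strand: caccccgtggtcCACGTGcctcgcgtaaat
The match begins 245 and 98 bases before the RefSeq start of *Ctsd*, 236 before that of *Ctsl*, 12 before that of *Ctsa* and 79 before that of *Ctsf*. These starts are not always the outermost of GENCODE, whose gene coordinates are given above. The stretches of *Ctsl* and *Ctsa* and the one nearer the start of *Ctsd* lie inside the GENCODE genes, downstream of their outermost starts, and the farther one of *Ctsd* and that of *Ctsf* lie outside. Among the members that hold the motif, *Ctsf* was barely transcribed. TGANTCA, TGACGTCA and CCGGAAGT were found in none of the 9 windows.

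Of 7 regulators of lysosomal genes, 6 had values. *Tfe3* lay at 71.1 ± 2.16 CPM in FAK-WT, 67.3 ± 6.60 CPM in FAK-/- and 67.0 ± 1.32 CPM in FAK-kd cells, and *Tfeb* at 5.74 ± 2.79, 6.58 ± 1.02 and 6.03 ± 0.891 CPM (SD, n = 3 each), and neither passed in a comparison. *Flcn* and *Fnip2*, folliculin and a partner that hold TFEB and TFE3 in the cytoplasm when nutrients are plentiful, were higher in FAK-WT cells. The *Flcn* libraries lay at 44.1, 45.3 and 49.3 CPM in FAK-WT cells, at 33.4, 32.8 and 37.1 CPM in FAK-/- cells and at 27.4, 33.6 and 31.6 CPM in FAK-kd cells. Its log2 fold change was 0.44 against FAK-/- cells (edgeR adjusted p = 0.00678) and 0.60 against FAK-kd cells (adjusted p = 0.000641), and that of *Fnip2* was 0.47 and 0.36 (adjusted p = 0.00392 and 0.0197). *Mitf* was lower in FAK-WT cells relative to FAK-kd cells by 0.33 (adjusted p = 0.0439). No regulator passed between FAK-kd and FAK-/- cells.

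Among 15 further cathepsins and cathepsin-like proteins, 7 had values and *Ctso* and *Tinagl1* had a mean over 1 CPM. *Tinagl1*, a secreted relative of cathepsin B without protease activity that binds integrins, ran opposite to *Ctsz*. It lay at 108, 115 and 113 CPM in the FAK-WT libraries, at 24.4, 24.2 and 32.1 CPM in the FAK-/- libraries and at 32.5, 30.6 and 26.6 CPM in the FAK-kd libraries. The FAK-WT libraries stood far above both other lines, which overlapped with each other. Its log2 fold change was 2.07 against FAK-/- cells (standard error 0.12, edgeR adjusted p = 7.1e-09) and 1.92 against FAK-kd cells (standard error 0.12, adjusted p = 1.5e-08). *Tinag*, at 0.464 CPM in FAK-/- cells and 0.0821 CPM in FAK-WT cells, was called lower in FAK-WT cells (adjusted p = 0.0386) and was named after its values were seen.

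The inhibitors were measured through 7 of 15 genes. *Cst3*, which encodes cystatin C, the main secreted inhibitor, lay at 292 ± 7.63 CPM in FAK-WT, 315 ± 42.1 CPM in FAK-/- and 294 ± 17.1 CPM in FAK-kd cells (SD, n = 3 each) and did not pass. *Cst6*, which encodes cystatin E/M, an inhibitor of cathepsin L and legumain, was lowest in FAK-kd cells. Its libraries lay at 20.1, 21.2 and 20.4 CPM in FAK-WT cells, at 21.6, 21.8 and 24.7 CPM in FAK-/- cells and at 9.65, 11.1 and 11.3 CPM in FAK-kd cells. Its FAK-WT level exceeded the FAK-kd level by 0.96 on the log2 scale (edgeR adjusted p = 9.1e-06), and the log2 fold change was -1.09 between FAK-kd and FAK-/- cells (adjusted p = 4.7e-06) and -0.13 between FAK-WT and FAK-/- cells, which did not pass. *Cstb*, the cytoplasmic cystatin B, was lower in FAK-WT cells relative to FAK-kd cells by 0.33 (adjusted p = 0.0107).

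All 13 genes for sorting to the lysosome had values, and their changes were small. *M6pr*, the smaller of the mannose 6-phosphate receptors, lay at 126 ± 3.50 CPM in FAK-WT, 179 ± 6.69 CPM in FAK-/- and 171 ± 22.9 CPM in FAK-kd cells (SD, n = 3 each). Each FAK-WT library lay below all of the others, with log2 fold changes of -0.52 (edgeR adjusted p = 0.000648) and -0.45 (adjusted p = 0.00188). *Igf2r*, the larger receptor, was higher in FAK-kd than in FAK-/- cells by 0.59 (adjusted p = 0.00731), with the FAK-kd libraries spread from 101 to 157 CPM. The adaptors of the trans-Golgi network split, with *Gga2* higher (0.55, adjusted p = 0.000490) and *Gga1* lower (-0.49, adjusted p = 0.00114) in FAK-WT cells relative to FAK-kd cells, and *Gga2* was lower in FAK-kd than in FAK-/- cells (-0.39, adjusted p = 0.0110). *Vps35*, a retromer subunit, was higher in FAK-WT cells relative to FAK-/- cells by 0.33 (adjusted p = 0.0360). The remaining sorting genes, which include *Gnptab*, the enzyme that makes the mannose 6-phosphate tag, passed in no comparison.

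Of 9 other lysosomal peptidases and cathepsin partners, 4 were higher and 1 was lower in FAK-WT cells relative to FAK-/- cells, and relative to FAK-kd cells 5 were higher and 1 was lower. Over all genes, 8.01% and 9.96% were called higher and lower in the first comparison and 7.58% and 10.2% in the second. *Lgmn*, the asparagine endopeptidase legumain that cleaves several cathepsins, lay at 29.0, 39.7 and 38.7 CPM in the FAK-WT libraries, at 24.1, 22.8 and 22.2 CPM in the FAK-/- libraries and at 27.6, 25.6 and 24.8 CPM in the FAK-kd libraries. FAK-WT replicate 1, at 23 counts, came close to the FAK-kd libraries. The log2 fold changes were 0.72 (edgeR adjusted p = 0.000131) and 0.54 (adjusted p = 0.00137). *Dpp7*, a dipeptidyl peptidase, was higher by 0.56 (adjusted p = 0.00130) and 0.87 (adjusted p = 2.4e-05), *Tpp1*, a tripeptidyl peptidase, by 0.32 against FAK-/- cells (adjusted p = 0.0262), and *Neu1*, the sialidase that cathepsin A protects, by 0.68 against FAK-kd cells (adjusted p = 0.00867). *Prcp* was lower in FAK-kd than in FAK-/- cells by 0.47 (adjusted p = 0.00111) and was also among the 5. *Galns*, a sulfatase, was lower in FAK-WT cells by 0.48 (adjusted p = 0.0140) and 0.56 (adjusted p = 0.00439). *Napsa*, an aspartic protease related to cathepsin D, completes the counts at 0.545 CPM in FAK-WT cells, and it and *Prcp* against FAK-WT cells were named after their values were seen. The lists were chosen with results of these data known, so their counts are a description and no independent sign of a direction.

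**Figure D5:**
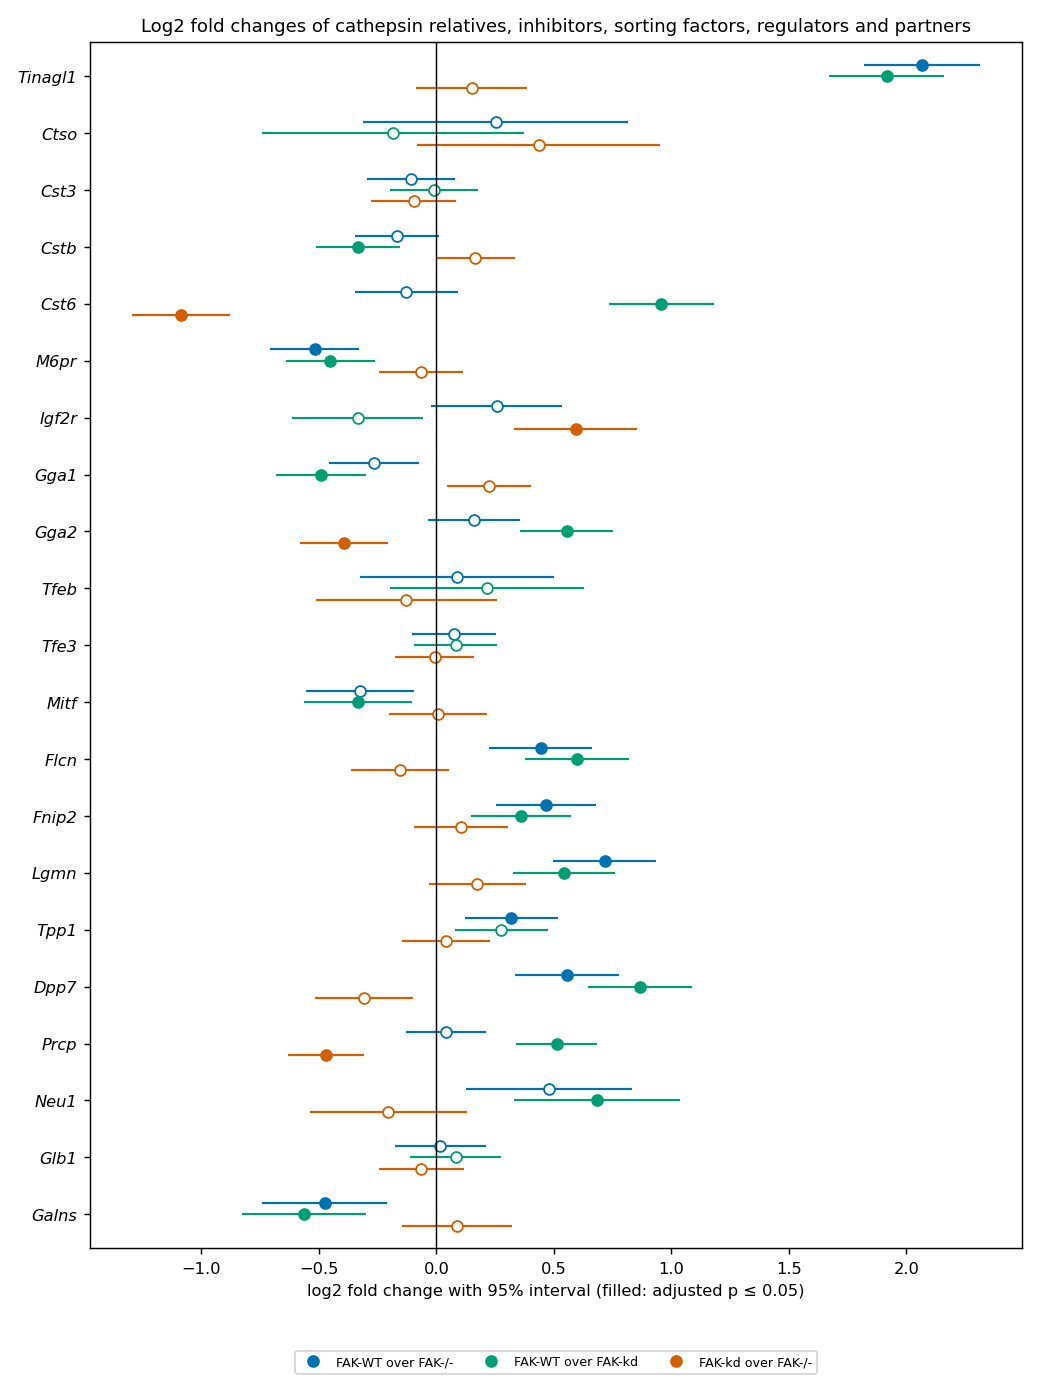
Log2 fold changes (x axis) of 21 relatives, inhibitors, sorting factors, regulators and partners of the cathepsins (y axis) in the 3 comparisons, with 95% intervals as lines and filled points where the adjusted p was 0.05 or below. *Tinagl1* is highest in FAK-WT cells at 2.07 and 1.92, *Cst6* is low in FAK-kd cells at -1.09, and the others lie within 0.9 of 0.

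Macrophages are a known source of cathepsins Z, H and S, so their markers are given beside these results. Of 10 markers, 8 had values. *Csf1r*, *Lyz2*, *Itgam*, *Aif1* and *Fcer1g* had at most 4 counts in any library, with *Csf1r* and *Lyz2* at 0 in all FAK-WT libraries, and *Ptprc* had at most 21 counts. *Cd68* lay at 1.26 ± 1.09 CPM in FAK-WT, 2.72 ± 0.400 CPM in FAK-/- and 2.05 ± 0.495 CPM in FAK-kd cells (SD, n = 3 each). Its FAK-WT libraries, 1 of them at 0 counts, lay below all FAK-/- libraries, and it passed in no comparison. The summed level of these markers ran from 2.52 to 9.34 CPM in FAK-WT, from 14.2 to 19.1 CPM in FAK-/- and from 14.8 to 17.1 CPM in FAK-kd libraries and was mostly *Cd14*. *Cd14*, the lipopolysaccharide co-receptor, was lower in FAK-WT cells by 0.94 on the log2 scale against FAK-/- cells (edgeR adjusted p = 0.000477) and by 1.00 against FAK-kd cells (adjusted p = 0.000258). The summed macrophage levels of FAK-kd and FAK-/- libraries overlapped, and the lowest FAK-WT sum was 2 counts of *Cd14* in replicate 1. All libraries come from cultured SCC lines, with FAK-WT and FAK-kd made from a FAK-/- clone. In bulk libraries, fewer cells of a type and less RNA per cell cannot be told apart. Fibroblast markers, with 7 of 8 measured, summed to between 1345 and 1988 CPM over all libraries, nearly all of it *Col3a1*. The markers did not move in 1 direction. *Pdgfra* and *Pdgfrb*, the receptors for platelet-derived growth factor, were lower in FAK-WT cells, by log2 fold changes of -1.44 and -2.04 against FAK-/- cells and -1.11 and -2.40 against FAK-kd cells (edgeR adjusted p 1.3e-05, 4.3e-07, 0.000157 and 7.3e-08). *Dcn*, the matrix proteoglycan decorin, was called higher in FAK-WT cells relative to FAK-/- cells (log2 fold change 2.24, edgeR adjusted p = 0.0426) at 0.294 and 0.0819 CPM, with overlapping libraries. *Col1a2*, a chain of type I collagen, was higher in FAK-kd than in FAK-/- cells by 1.29 (edgeR adjusted p = 0.00469), and its log2 fold change of 0.80 between FAK-WT and FAK-/- cells did not pass (adjusted p = 0.0584). *Thy1* had at most 2 counts. Endothelial markers, with 4 of 6 measured, summed to at most 2.05 CPM in any library. The sums ran from 1.26 to 2.05 CPM in FAK-WT, from 0.360 to 0.513 CPM in FAK-/- and from 0.240 to 0.351 CPM in FAK-kd libraries. In FAK-WT cells nearly all of this was *Cdh5*. *Pecam1* was lowest in FAK-WT cells, at 0.0769 CPM beside 0.220 CPM in FAK-/- and 0.188 CPM in FAK-kd cells, and passed in no comparison. *Kdr* and *Tek* had at most 3 counts in any library. *Cdh5*, the endothelial cadherin, had 118 counts over the FAK-WT, 13 over the FAK-/- and 2 over the FAK-kd libraries and was called higher in FAK-WT cells, at log2 fold changes of 3.42 (edgeR adjusted p = 0.000272) and 6.04 (edgeR adjusted p = 1.2e-05). The part of these cell types and of the depth of FAK-WT replicate 1 in the cathepsin results was not tested beyond the values given.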

How the data were processed

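RNA-seq was analysed from 9 libraries, 3 for each of the FAK-WT, FAK-/- and FAK-kd lines, grouped by the sample titles and labels. The authors pseudoaligned paired-end reads with kallisto (version 0.43.1 in the submitters' processing notes) and deposited its estimated counts, summed to genes by tximport, as unscaled whole numbers without genes at 0 throughout. No correction for transcript length was made here, and the transcriptome release is not given in the sources used here. Kallisto divides reads that match several genes. Of 19044 identifiers, 18881 were given a symbol and position from GENCODE M21 (GRCm38), and 163 were not. Upstream windows came from RefSeq (GRCm38.p6), and motifs were searched on both strands.

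A single quasi-likelihood model in edgeR 4.0.16 (R 4.3.3) was fitted to the counts of all 9 libraries after TMM scaling, with cell line as the factor, no filter on low counts, and Benjamini–Hochberg adjustment over all genes. Intervals are at 95%. CPM per kb uses the mean length of a gene's coding transcripts. An exact permutation test of 3 libraries against 3 cannot go below p = 0.1 (two-sided), so none is given. The steps were tested on simulated data, in which 200 of 18422 genes were changed by 2 on the log2 scale. Of these, 197 were recovered for FAK-WT against FAK-/- cells, with 41 other calls, and 198 for FAK-WT against FAK-kd cells, with 38. Between FAK-kd and FAK-/- cells, where none was changed, 16 genes were called. In each comparison the false calls were a larger share of all calls than the adjusted p threshold is meant to allow. Calls close to that threshold are therefore less certain than their adjusted p states.

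The members and lists were chosen with earlier results of these data known. Named genes were the members, *Ptk2*, up to 3 genes per list, comparison and direction with the largest fold change among those called with a mean of at least 1 CPM, the 5 genes most like *Ctsz*, and the 3 nearest coding genes in the table on each side of it. *Nelfcd*, which overlaps *Ctsz*, and all other genes were named after their values were seen. Alternatives were DESeq2 1.42.0, its size factors and plain library sizes for scaling, filterByExpr or at least 10 counts per library as filters, separate fits for each comparison, a replicate block, a fold minimum, another length and floor, and leaving out each library.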

Additional observations from a re-analysis of the deposited data

Results flagged for a closer look

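For *Ctsz*, the lines with wild-type and kinase-deficient FAK stood on opposite sides of the FAK-/- cells. Every FAK-kd library lay above every FAK-/- library, with a log2 fold change of 1.56, and every FAK-WT library lay below them, at 0 or 1 count. The FAK-WT level had chosen the gene, and the difference between these 2 effects was not tested.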

How the results depend on the processing

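The lower level of *Ctsh* in FAK-WT cells and the higher level of *Ctsz* in FAK-kd than in FAK-/- cells kept their direction and stayed past the threshold in each alternative that tested them. A minimum of 10 counts in every library removed both genes, and so the counts of called cathepsins they made up went from 1 to 0. Between FAK-WT and FAK-/- cells, the count of higher cathepsins (*Ctsd*) ranged from 0 to 1 with a library left out. Between FAK-WT and FAK-kd cells, the count of higher cathepsins (*Ctsl*) rose to 2, with *Ctsd* added, in DESeq2 and with only the libraries compared, and ranged from 0 to 2 with a library left out. Between FAK-kd and FAK-/- cells, the count of lower cathepsins (*Ctsl*) was 0 with only the libraries compared and with a replicate block (adjusted p = 0.0513), and ranged from 0 to 1 with a library left out. With the fold minimum these counts of *Ctsd* and *Ctsl* were 0. The cause of these changes was not tested. The lists of relatives, inhibitors, sorting, regulators and partners hold 7, 7, 13, 6 and 9 genes with values. For these lists together, 8 higher and 3 lower genes against FAK-/- cells became 2 and 1 with the fold minimum, and 1 was lower in DESeq2 and with only the libraries compared. Over all genes, 8.01% were called higher and 9.96% lower in this comparison, and 2.32% and 3.06% with the fold minimum. With a library left out the list counts ranged from 5 (without FAK-WT replicate 3) to 10 and from 1 (without FAK-WT replicate 2) to 5 (without FAK-/- replicate 3). Against FAK-kd cells, 10 higher and 5 lower became 2 and 0 with the fold minimum, and the lower count ranged from 2 (without FAK-WT replicate 2; 3 without replicate 3) to 7 with a library left out. The shares of all genes were 7.58% and 10.2%, and 2.37% and 2.89% with the fold minimum. Between FAK-kd and FAK-/- cells, 1 higher and 3 lower became 0 and 1 with the fold minimum, and the higher count ranged from 0 (without FAK-kd replicate 3) to 3 (without FAK-/- replicate 3). The shares of all genes were 3.97% and 3.88%, and 0.914% and 1.09% with the fold minimum. Values near 0 that passed no test turned their sign between FAK-WT and FAK-/- cells. *Ctsa* went to 0.00101 with DESeq2's size factors, 0.00415 with library size, 0.00638 with filterByExpr, 0.00468 in DESeq2, 0.00531 with only the libraries compared and ranged from -0.0299 to 0.0422 with a library left out. *Ctsl* went to -0.0111 with the count minimum and ranged from -0.0914 to 0.0849, and *Ctsk* from -0.346 to 0.71, with a library left out. The ratios of *Ctsz* to the floor in FAK-WT cells became 223 and 655 with 3 counts over the group, and ranged from 54.1 to 110 and from 159 to 324 with a FAK-WT library left out. The summed levels of 766, 741 and 704 became 480, 455 and 458 with the longest transcript. Replicate numbers did not pair the samples. Deviations of libraries with the same number had a mean correlation of -0.0140 (9 pairs), and with different numbers 0.00655 (18 pairs), across genes. The depth of FAK-WT replicate 1 limits what can be seen of genes under 3.78 CPM in that library. The floors of FAK-WT replicates 2 and 3 were 0.0798 and 0.0865 CPM.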
